A study of Mus musculus with 4 samples.

Results

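The liver X receptors (LXRs), the transporters that carry cholesterol out of the cell and the classic genes that LXRs switch on were followed in RAW264.7 cells exposed to 1,5-anhydroglucitol (1,5-AG). The 10 genes were named in advance of this account as a list: the receptors Nr1h2 and Nr1h3, the efflux transporters Abca1 and Abcg1, and the targets Apoe, Pltp, Mylip, Srebf1, Scd1 and Lpcat3. All 10 were present among the 21523 gene identifiers of the deposited table, and all 10 exceeded the mean of 1 FPKM needed to enter the statistical fit. The list was chosen by gene function with the FPKM values of this same contrast in view, the increase of Abca1 above all, so the differences of its members are given as a description and support no inference about the list.

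RAW264.7 is a mouse macrophage-like line from a virus-induced tumour, and 1,5-AG is a naturally occurring polyol that resembles glucose without the hydroxyl group on its first carbon. The treated group comprised 2 libraries from cells given 0.5 mM 1,5-AG for 24 h, and the control group 2 libraries from cells with no treatment. Both groups came from the same single line kept in serum-supplemented medium. The labels give no vehicle and no culture time for the controls, and do not say whether replicates were separate cultures. The spread behind each p-value is therefore that between libraries, and it may be technical only.

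LXRs are nuclear receptors that sense oxysterols, the oxidised derivatives of cholesterol. They pair with retinoid X receptors on DNA at direct repeats of a short hexamer with a spacer between the copies. In macrophages they raise transporters that hand cholesterol to apolipoproteins and lipoproteins, genes that remodel phospholipids and fatty acids, and a ubiquitin ligase.

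Promoter sequences were read first, because the direct repeat is the feature that LXR targets are known to share. RefSeq promoter windows (GRCm38.p6, 250 bases before to 50 bases after an annotated start) were matched for 8 of the 10 genes, and these 8 had 13 windows. The promoters of Abcg1 and Scd1 were not analysed here. Sequence outside these windows was not scanned, so a low score does not show that a gene lacks the repeat. Each window was scanned on both strands for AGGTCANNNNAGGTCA, and the best of all positions was kept with its number of matching bases out of 12. The best windows of Apoe and Nr1h3, with 8 matching bases, and of Pltp, with 7, are not written out. The other best windows are written below on the strand of the repeat, with capitals for the bases that match it. The Fasn window is shown for the reason given after them.
Abca1: gGGTtActaccGGTCA
Fasn: gGGTtActaccGGTCA
Srebf1: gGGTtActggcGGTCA
Lpcat3: AGGTaggaagAGGgCg
Nr1h2: AGtTCcggaaAGtTCt
Mylip: AGtTCccgggAGcTac

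Abca1 and Srebf1 had 9 matching bases each, a score reached by 21.89% of the 32841 promoter windows of the table. The other members reached 7 or 8, and 76.9% of all windows reached 8. The Abca1 and Srebf1 windows were identical at 14 of 16 bases. A search for the letters they share, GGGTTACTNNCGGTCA, on both strands found 3 of the 32841 windows, those of Abca1, Srebf1 and Fasn. That search was chosen after the windows had been seen. Fasn, the fatty acid synthase gene and itself a known LXR target, carried a window identical to that of Abca1 at 16 of 16 bases.

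The 250 bases upstream of the start that hold these windows are shown 5′ to 3′ on the strand of each gene, with the window in capitals, because these genes share the letters and had unlike differences with 1,5-AG. They lie at chr4:53159896-53160145 (minus strand) for Abca1, at chr11:60210472-60210721 (minus strand) for the most downstream of 3 annotated Srebf1 starts, and at chr11:120824548-120824797 (minus strand) for Fasn.
Abca1: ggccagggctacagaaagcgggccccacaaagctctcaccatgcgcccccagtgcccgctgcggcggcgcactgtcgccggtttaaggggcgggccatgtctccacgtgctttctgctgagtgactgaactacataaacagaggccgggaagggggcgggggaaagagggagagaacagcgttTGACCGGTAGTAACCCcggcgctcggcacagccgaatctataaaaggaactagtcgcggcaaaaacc
Srebf1: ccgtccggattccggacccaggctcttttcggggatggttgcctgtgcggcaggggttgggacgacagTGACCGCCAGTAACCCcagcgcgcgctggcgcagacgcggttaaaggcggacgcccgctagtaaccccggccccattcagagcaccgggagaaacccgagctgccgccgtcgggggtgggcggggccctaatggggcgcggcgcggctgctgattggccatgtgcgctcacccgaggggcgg
Fasn: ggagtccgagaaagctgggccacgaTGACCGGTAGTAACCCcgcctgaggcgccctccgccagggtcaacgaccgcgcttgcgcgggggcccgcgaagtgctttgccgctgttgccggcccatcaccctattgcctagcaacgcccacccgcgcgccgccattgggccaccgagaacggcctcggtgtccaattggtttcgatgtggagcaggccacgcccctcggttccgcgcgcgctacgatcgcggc

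The window began at base -67 in Abca1, at -182 in Srebf1 and at -225 in Fasn, counted from the annotated start. The Abca1 promoter also held an E-box (CACGTG) at -147, a TATA box (TATAAA) at -29 and 2 GC boxes (GGGCGG). An E-box was found in 7.15% of all windows, a TATA box in 13.62% and a GC box in 35.67%, each counted on both strands. The Srebf1 window beside the most downstream start held 2 GC boxes with neither an E-box nor a TATA box, and the Fasn window held none of the 3 motifs. Lpcat3 held 6 GC boxes, one of which overlaps its direct repeat window. Mylip held a TATA box at -32 and a GC box at -44, and Apoe and Pltp also held TATA box matches. A match to these letters is a description, and binding was not measured.

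**Figure D1:**
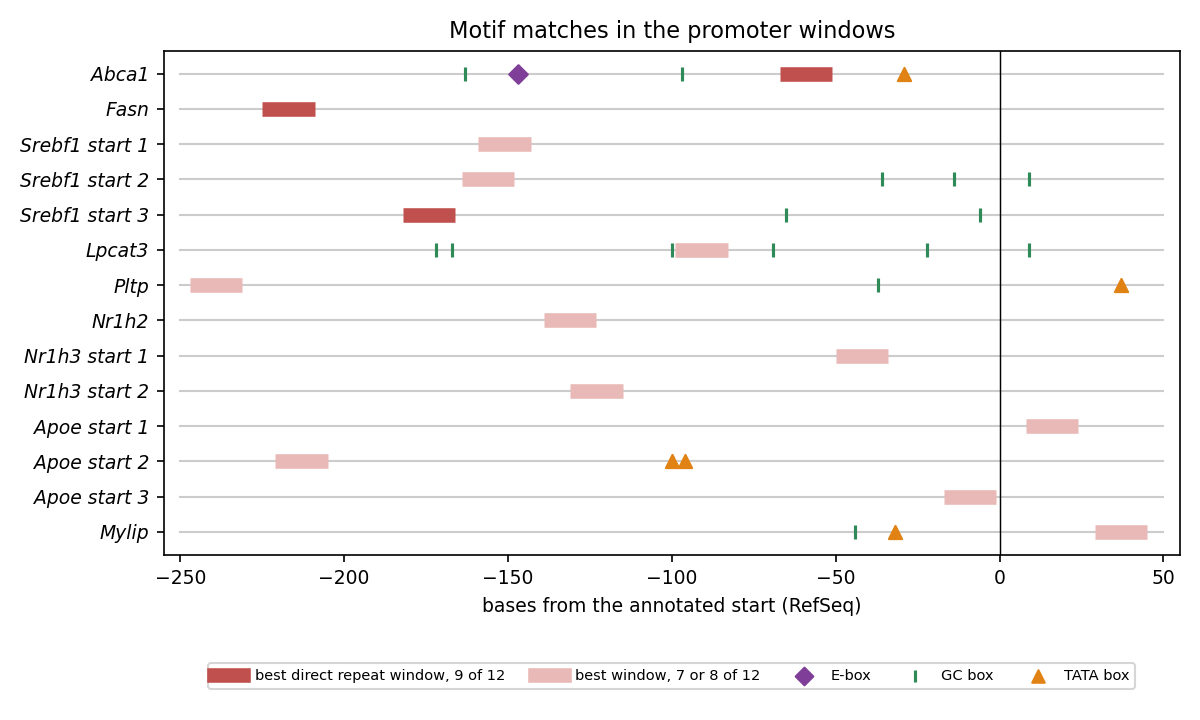
Position of motif matches in RefSeq promoter windows, in bases from the annotated start, with one line per annotated start. Dark bars are best direct repeat windows with 9 of 12 matching bases, found in Abca1, Fasn and the most downstream Srebf1 start, and pale bars are best windows with 7 or 8; symbols mark E-box, GC box and TATA box matches on either strand.

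Levels are given in FPKM, fragments scaled to exon length and library size, as the authors deposited them. The libraries held 14616556 and 15112965 gene-assigned fragments with 1,5-AG, and 15163807 and 16228673 in controls, as recovered from the FPKM values. Macrophage marker genes were present, 7 of 7, with summed FPKM of 3947 and 3855 with 1,5-AG against 5475 and 5331 in controls. Most of that difference lay in Lyz2, the macrophage lysozyme gene, at 3095 and 3001 FPKM with 1,5-AG and 4554 and 4422 FPKM in controls, and Lyz2 fell in the limma fit described below (log2 difference -0.56, limma adjusted p = 0.0169). Cd68 and Csf1r, which mark macrophages, had log2 differences of -0.07 and -0.11, and Adgre1, the gene of a macrophage surface glycoprotein, one of -0.32. None of these 3 passed in limma, while voom, also described below, called Csf1r and Adgre1 lower (voom adjusted p = 0.0302 and 0.00937). Of 18 markers of fibroblasts, T cells, neutrophils, epithelium and liver, and adipocytes, 6 were found in the table, none with a mean above 0.308 FPKM, and they summed to 0.461 and 0.353 FPKM with 1,5-AG and 0.512 and 0.530 FPKM in controls. Ptprc, another of the 7 markers, had a limma difference of -0.21 and was lower with voom (adjusted p = 0.00835). Spi1 overlapped between groups, with a limma difference of -0.16. Itgam went the other way and overlapped, with 7.50 and 7.51 FPKM with 1,5-AG against 6.87 and 7.67 FPKM in controls (0.04, limma adjusted p = 0.793). The part of these marker differences in the results below was not tested.

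Each difference is the mean log2(FPKM + 1) with 1,5-AG minus that of controls, from a limma fit over 11120 genes with Benjamini-Hochberg adjustment at 0.05. Of the 10 genes, 3 rose in that fit and 0 fell, where 1.46% of all tested genes were called in either direction, 0.809% higher and 0.647% lower. The member median was 0.03 against -0.00252 for all tested genes, with 5 members positive and 5 negative. Over all tested genes 5464 were positive and 5656 negative. The groups did not overlap in 9 of the 10 genes, and the same held for 49.6% of all tested genes. In bulk libraries a change in the number of cells that make a transcript and a change in transcript per cell cannot be told apart.

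The receptors themselves showed no call. Nr1h2 encodes LXR beta, the broadly expressed receptor (chromosome 7, 44549616 to 44553951, mm10). It had 16.6 and 17.7 FPKM with 1,5-AG against 18.8 and 18.2 FPKM in controls, from 812 to 989 fragments per library. Both treated libraries were slightly below both controls, and the log2 difference of -0.11 (SE 0.05) had a 95% interval of -0.24 to 0.03. Nr1h3 encodes LXR alpha, the receptor typical of liver and of tissue macrophages (chromosome 2, 91184061 to 91202834). It had 1.82 and 1.71 FPKM with 1,5-AG against 1.78 and 2.23 FPKM in controls. The groups overlapped, and with 65 to 91 fragments per library the interval of its log2 difference was wide, -0.42 to 0.19. Per length, Nr1h2 exceeded Nr1h3 9.09- and 10.3-fold in the treated libraries and 10.6- and 8.15-fold in the controls, so the balance of the receptor transcripts overlapped between groups. Nr1h3 shares 34 bp of exon with the transcript Gm13783 on the same strand.

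Abca1 moves cholesterol and phospholipid across the plasma membrane to lipid-poor apolipoprotein A-I (chromosome 4, 53030787 to 53159895). It had 19.4 and 18.5 FPKM with 1,5-AG against 3.82 and 4.70 FPKM in controls. These values came from 2945 and 2899 fragments in the treated libraries and 601 and 791 in the controls, so counting error was small beside the difference. The ratio of a treated to a control library lay between 3.94 and 5.08 over the 4 pairs, the ratio of means was 4.45, and the log2 difference was 1.93 (SE 0.09). Abca1 ranked 4 among the 11120 tested genes by size of increase.

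Abcg1 passes cholesterol to mature lipoprotein particles and acts beside Abca1 in macrophage efflux (chromosome 17, 31057675 to 31117988). It had 63.2 and 59.3 FPKM with 1,5-AG against 41.9 and 40.3 FPKM in controls. Both treated libraries lay well above both controls, with a ratio of means of 1.49 and a log2 difference of 0.56 (SE 0.05). Abcg1 therefore rose with Abca1 but by much less: the lowest Abca1 difference between any treated and any control library was 1.77, and the highest Abcg1 difference was 0.63. Abcg1 was the more abundant transcript in all 4 libraries per length, at 3.25 and 3.21 times Abca1 in the treated libraries and 11.0 and 8.58 times Abca1 in the controls.

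The genes of extracellular lipid carriers did not pass. Apoe encodes apolipoprotein E, which takes up effluxed cholesterol (chromosome 7, 19696109 to 19699188). It had 4.19 and 4.24 FPKM with 1,5-AG against 5.03 and 4.35 FPKM in controls. The treated values lay just below the lower control, and the log2 difference of -0.12 (SE 0.08) had an interval of -0.33 to 0.09, which leaves out an increase of the Abcg1 size. Pltp, which transfers phospholipid between lipoproteins (chromosome 2, 164839518 to 164857711), had 9.13 and 8.78 FPKM with 1,5-AG against 9.58 and 9.48 FPKM in controls. Both treated values were below both controls, and the log2 difference of -0.08 (SE 0.05) had an interval of -0.21 to 0.05. Of the 2562 bp of Pltp exon, 495 bp overlap the gene Ctsa on the opposite strand, which had a mean of 165.9 FPKM. The sources used here do not give the strand setting of the counting, so the Pltp level is uncertain.

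Mylip encodes IDOL, a ubiquitin ligase that LXRs induce (chromosome 13, 45389742 to 45412022). It had 7.64 and 8.10 FPKM with 1,5-AG against 9.73 and 8.96 FPKM in controls. Both treated libraries lay below both controls, and the log2 difference of -0.22 (SE 0.06) was the lowest of the 10 but did not pass.

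**Figure D2:**
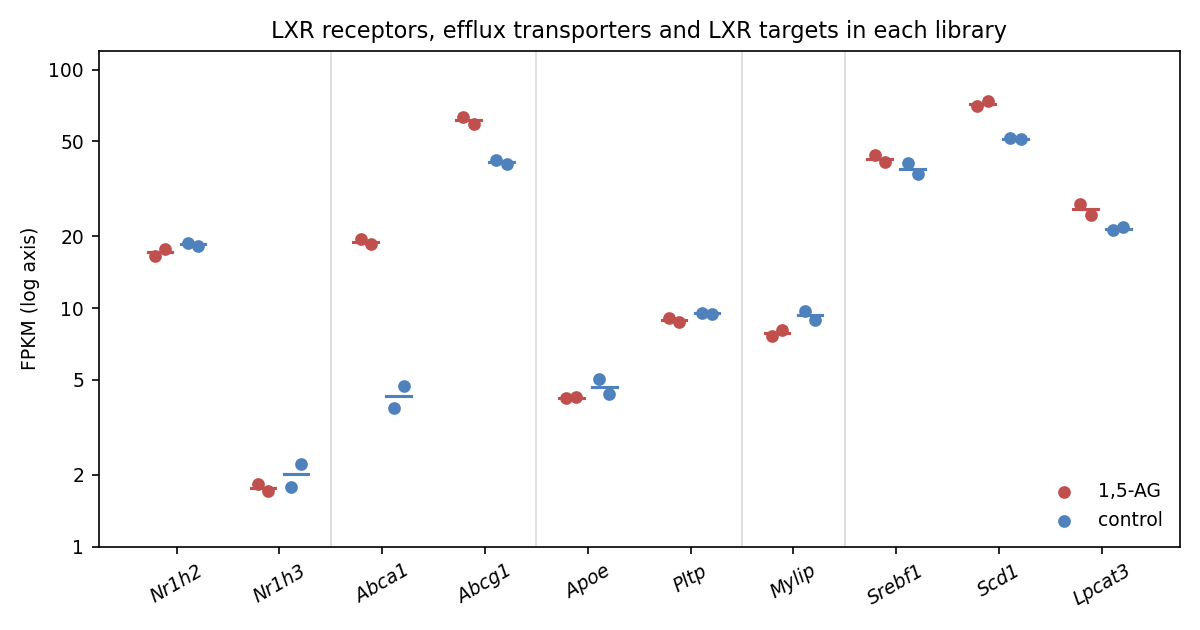
FPKM of each gene in each library on a log axis, with 2 libraries with 1,5-AG (left, red) and 2 control libraries (right, blue) per gene and a bar at the group mean. Genes run from receptors through efflux transporters, apolipoprotein and lipid transfer genes and Mylip to lipid enzymes and Srebf1. Abca1 averages 19.0 FPKM with 1,5-AG and 4.26 FPKM in controls, Abcg1 and Scd1 separate by less, and Nr1h3 overlaps.

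Among the lipogenic members Scd1 alone passed in limma. Scd1, a desaturase that makes monounsaturated fatty acids (chromosome 19, 44394455 to 44407879), had 70.1 and 73.8 FPKM with 1,5-AG against 51.5 and 51.4 FPKM in controls. It rose with a ratio of means of 1.40 and a log2 difference of 0.48 (SE 0.04). Its closely related gene Scd2, which could share reads with it, had 410.8 and 436.2 FPKM with 1,5-AG against 368.2 and 371.1 FPKM in controls (0.20, limma adjusted p = 0.103). Scd2 passed as higher with voom (adjusted p = 0.000439) and with a replicate block in limma (adjusted p = 0.0471).

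Lpcat3 places polyunsaturated chains into membrane phospholipids (chromosome 6, 124663027 to 124704418). It had 27.3 and 24.6 FPKM with 1,5-AG against 21.2 and 22.0 FPKM in controls. The treated libraries were above the controls but differed among themselves by more than the controls did, and the log2 difference of 0.25 (SE 0.06) did not pass. It did pass when limma's voom method was applied to the recovered fragments, with a log2 difference of 0.27 on the log2 scale of fragment share, where 4 of the 10 genes were called against 7.81% of all tested. Lpcat3 shares 334 bp of exon with Emg1 on the opposite strand, which had a mean of 36.6 FPKM.

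Srebf1 encodes the transcription factor SREBP-1, the route by which LXRs drive fatty acid synthesis (chromosome 11, 60199089 to 60222581). It had 43.8 and 40.9 FPKM with 1,5-AG against 40.5 and 36.3 FPKM in controls. The lower treated value and the higher control value were almost equal, and the log2 difference of 0.14 (SE 0.07) had an interval of -0.03 to 0.31. Its values are for the whole gene, so the 3 annotated starts, of which the most downstream carries the window shared with Abca1, were not separated. It shares 109 bp of exon with Rai1 on the opposite strand. Fasn, a target of both LXR and SREBP-1, had 64.6 and 60.5 FPKM with 1,5-AG against 66.3 and 59.9 FPKM in controls. The groups overlapped, and the difference of -0.01 (SE 0.06), whose sign changed when control replicate 1 or AG replicate 2 was left out, had an interval of -0.17 to 0.15. The 3 genes with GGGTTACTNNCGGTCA in their promoter windows thus had log2 differences of 1.93, 0.14 and -0.01, of which that of Abca1 passed.

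In order of change, Abca1 stood apart from Abcg1, with no overlap between their ranges over the 4 treated-control pairs of libraries. Abcg1 and Scd1 overlapped each other, Scd1 did not overlap Lpcat3, and Lpcat3 and Srebf1 overlapped. Srebf1 did not overlap Pltp, and each neighbour from Pltp through Nr1h2, Nr1h3 and Apoe to Mylip overlapped the next. In order of level with 1,5-AG the genes ran from Scd1 at 71.9 FPKM through Abcg1, Srebf1, Lpcat3, Abca1, Nr1h2, Pltp, Mylip and Apoe to Nr1h3 at 1.77 FPKM, with no overlap between neighbours. In controls Abca1 stood ninth, below Apoe, with overlap between Abcg1 and Srebf1, between Pltp and Mylip, and between Apoe and Abca1.

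**Figure D3:**
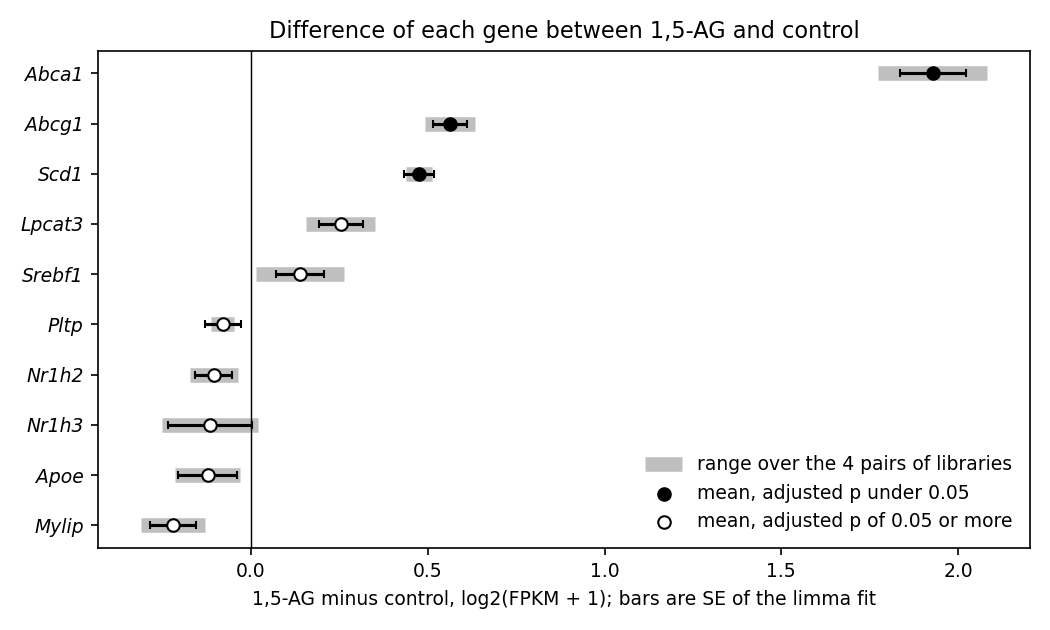
Difference between 1,5-AG and control for each gene in log2(FPKM + 1) units, from the limma fit with its SE, over the range of the 4 treated-control pairs of libraries (grey). Abca1 at 1.93 lies apart from Abcg1 at 0.56 and Scd1 at 0.48, the other 2 genes with an adjusted p under 0.05, while the ranges of Nr1h2, Nr1h3, Pltp, Apoe and Mylip lie near or below 0.

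Beyond these 10, 24 further LXR target genes were listed, of which 18 were found in the table and 11 were tested. In this list 2 rose and 1 fell in the limma fit, with a median of -0.01, and voom called 4 higher and 2 lower. Over all tested genes 0.809% rose and 0.647% fell in limma, and voom called 400 higher and 468 lower of 11118. Plin2, a coat protein of lipid droplets, had 44.5 and 43.7 FPKM with 1,5-AG against 23.5 and 22.1 FPKM in controls, and rose by 0.92 (limma adjusted p = 0.0101). Acaca, which makes the malonyl-CoA used by fatty acid synthase, had 15.0 and 14.8 FPKM with 1,5-AG against 11.2 and 11.6 FPKM in controls (0.36, limma adjusted p = 0.0461). Fads1, a desaturase of polyunsaturated fatty acids, had 71.2 and 68.6 FPKM with 1,5-AG against 88.2 and 86.1 FPKM in controls, and fell (-0.31, limma adjusted p = 0.0425). The related Fads2 had -0.23 (limma adjusted p = 0.0803), and it passed as lower with voom (adjusted p = 0.00169), over genes averaging at least 5 FPKM (adjusted p = 0.0416) and with the replicate block (adjusted p = 0.0465). Lpl, the lipoprotein lipase gene, had -0.03 (limma adjusted p = 0.740).

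Of 15 tested LXR partners and coregulators 0 passed in the limma fit, with 3 positive, 12 negative and a median of -0.06. Over all tested genes 5464 were positive and 5656 negative. For these partners and coregulators voom also called 0, and Ncoa1, a receptor coactivator, had the smallest p (-0.20, limma adjusted p = 0.214). Rxra, the retinoid X receptor that pairs with LXR, had 1.98 and 1.79 FPKM with 1,5-AG against 2.61 and 2.25 FPKM in controls (-0.25, limma adjusted p = 0.314). Of 3 tested enzymes of oxysterol and LXR ligand metabolism 0 passed in either limma or voom. The smallest p was that of Cyp27a1, which makes 27-hydroxycholesterol, with 13.8 and 14.0 FPKM with 1,5-AG against 15.8 and 15.1 FPKM in controls (-0.14, limma adjusted p = 0.218).

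Tested genes of intracellular cholesterol handling and of SREBP regulation did not pass in limma either. Of 12 tested genes of intracellular cholesterol handling, 11 were negative, with a median of -0.11. Of all 11120 tested genes 5656 were negative, with a median of -0.00252. Nceh1, a cholesteryl ester hydrolase, had 14.2 and 14.9 FPKM with 1,5-AG against 16.9 and 17.7 FPKM in controls (-0.24, limma adjusted p = 0.115; voom adjusted p = 0.0136). Of 10 tested genes of SREBP regulation 3 were positive and 7 negative, with a median of -0.09. With voom, 1 gene of the cholesterol handling list was higher and 1 lower, and 2 of the SREBP list were lower, where 7.81% of all tested genes were called. In the limma fit 0 passed in either list.

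Beside Abca1 and Abcg1, 14 other ABCA and ABCG transporters were listed. Of these, 10 were found and 3 were tested, Abca2, Abca3 and Abca7, and 0 passed in the limma fit. Abca7, a phospholipid transporter and the close relative of Abca1, had 13.0 and 12.6 FPKM with 1,5-AG against 15.4 and 16.1 FPKM in controls. Its difference of -0.28 had an interval of -0.41 to -0.16 (limma adjusted p = 0.0795). It passed as lower with voom (adjusted p = 0.00219) and in limma over genes averaging at least 5 FPKM (adjusted p = 0.0424).

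Peroxisome proliferator-activated and retinoic acid receptors, which share the retinoid X partner, were listed with their classic targets. Of 10 tested genes 2 rose and 0 fell in limma (median 0.04), where 0.809% of all tested genes rose and 0.647% fell. Dhrs3, a retinaldehyde reductase that retinoic acid induces, had 24.7 and 23.2 FPKM with 1,5-AG against 14.4 and 14.1 FPKM in controls (0.71, limma adjusted p = 0.0209). Cd36, a scavenger receptor for oxidised lipoproteins, had 8.29 and 9.44 FPKM with 1,5-AG against 5.33 and 4.91 FPKM in controls (0.69, limma adjusted p = 0.0370). Pparg was scarce, at 0.0463 and 0.0896 FPKM with 1,5-AG and 0.0893 and 0.209 FPKM in controls, and was not tested. Cyclic AMP is a known inducer of Abca1 in RAW264.7 cells. Of 11 listed cyclic AMP-responsive genes 9 were found and 3 were tested, and 0 passed with limma or voom. Fosl2, an AP-1 subunit, had the smallest p (-0.20, limma adjusted p = 0.238). Those found but not tested averaged under 1 FPKM. A part of cyclic AMP in the Abca1 difference was not tested.

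**Figure D4:**
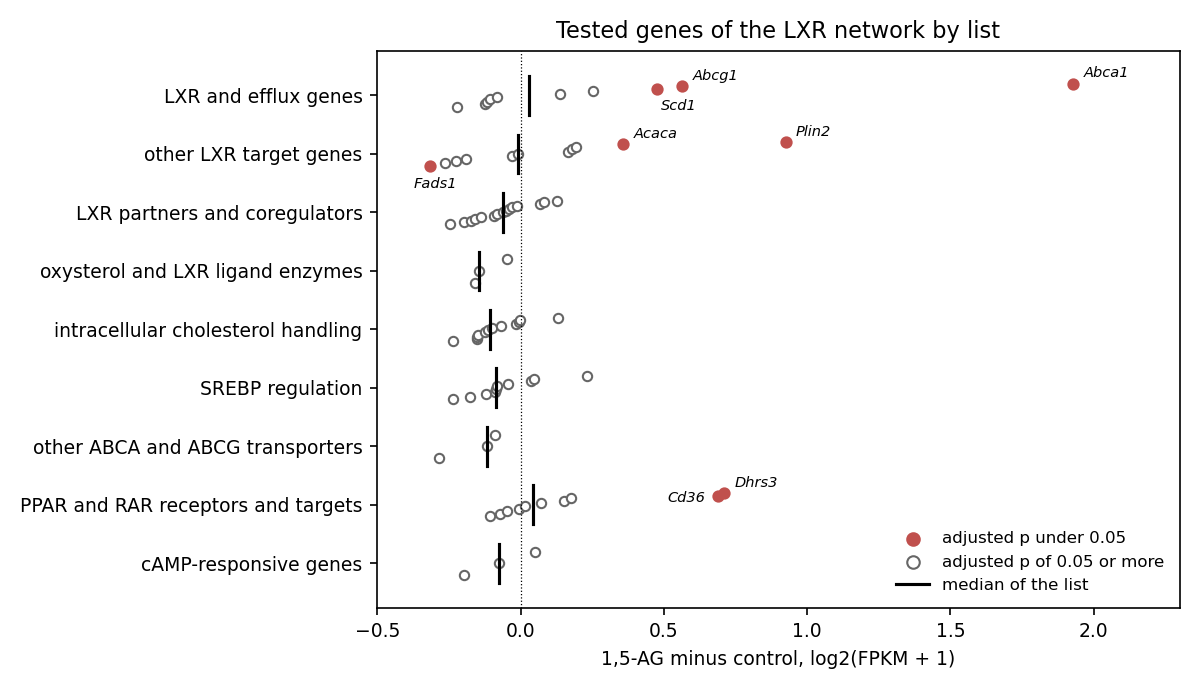
Difference between 1,5-AG and control on the log2(FPKM + 1) scale for every tested gene of the 10 LXR and efflux genes and of the 8 further lists, 1 point per gene, with the list median as a black line and genes of adjusted p under 0.05 filled. Filled points are Abca1, Abcg1 and Scd1 in the top list, Plin2, Acaca and Fads1 among other LXR targets, and Dhrs3 and Cd36 among PPAR and RAR genes.

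The genes whose profile lay closest to Abca1 were sought among all tested genes, with predicted genes and pseudogenes left out. Closeness was the Euclidean distance between log2(FPKM + 1) values centred on each gene's own mean over the 4 libraries. The nearest was Cxcl14, a chemokine gene, with 5.50 and 5.69 FPKM with 1,5-AG against 0.758 and 0.776 FPKM in controls (distance 0.180). Chst1, a carbohydrate sulfotransferase gene, had 11.0 and 10.8 FPKM with 1,5-AG against 3.08 and 3.22 FPKM in controls (0.432), and Car2, carbonic anhydrase 2, had 858.1 and 840.0 FPKM against 368.3 and 367.2 FPKM in controls (0.745). The other two of the nearest 5 were the microRNA genes Mir1968 and Mir7651, which rest on at most 8 fragments per library. Among the LXR and efflux genes Abcg1 was the nearest to Abca1, at rank 43 of 9405, followed by Scd1 at rank 59. With 4 libraries this likeness reflects little beyond the size of the group difference on the log2(FPKM + 1) scale. For Cxcl14, with 21 and 23 fragments in controls, it depends on that scale. The ratio of means was 7.30 for Cxcl14 and 4.45 for Abca1. With a pseudocount of 0.1 their log2 differences were 2.72 and 2.14.

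The calls of Abcg1 and Scd1 were lost when any of the 4 libraries was left out, and that of Abca1 when either 1,5-AG library was. Without control replicate 1 or control replicate 2, Abca1 alone passed; without AG replicate 1 or AG replicate 2, 0 of the 10 passed in limma, where 4 and 5 had an unadjusted p under 0.05. The log2 difference of Abca1 was 1.81 to 2.05 over these 4 fits, that of Abcg1 0.52 to 0.61 and that of Scd1 0.44 to 0.51.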

How the data were processed

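The 4 libraries were made from total RNA with a stranded mRNA kit, per the labels' protocols. The authors deposited FPKM, 1 column per library; Trimmomatic, HISAT2, Cufflinks and HTSeq with build mm10 are named per the submitters' processing notes, while the sources used here give no versions, strand setting or annotation. Identifiers were named from GENCODE M21 (mm10; 21508 of 21523 matched). FPKM times merged exon length gave whole fragments, within 0.02, in all 4 libraries for 99.4% of matched genes. Such depths cover counting error only, as fragments carry no molecular identifiers.

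Groups and replicate numbers came from sample titles. limma 3.58.1 (R 4.3.3) modelled log2(FPKM + 1) on group alone, with a trended variance, for the 11120 genes averaging 1 FPKM or more, two-sided, adjusted at 0.05; this scale understates changes of low genes. An exact permutation test of 2 against 2 cannot go below 0.333. The fit was tested on simulated data. Alternatives were other pseudocounts, filters and scalings, no trend, a replicate block, each library left out, and voom on recovered fragments.

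Members and lists were chosen with earlier results of these data known. Named genes were all members and up to 4 called genes per list with the smallest p (or the gene with the smallest p if none). The 5 nearest to Abca1 (predicted genes and pseudogenes left out) and 4 macrophage genes were named by the same rule. The others named (Fasn, Fads2, Scd2, Lpl, Rxra, Pparg, Abca2, Abca3, Ptprc, Itgam, Spi1) were chosen after their values were seen. A gene that this rule also named is not reported here, though list counts include it.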

Additional observations from a re-analysis of the deposited data

How the results depend on the processing

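The named genes kept their sign under those of the 13 alternatives in which they had a value, except Fasn and Lpl. Genes averaging under 5 FPKM had no value under that filter, and Pparg was not tested. Ptprc, Itgam and Spi1 were followed only in the main limma fit and voom. With 1 library left out, Fasn ranged from -0.082 to 0.062 and Lpl from -0.066 to 0.00335. The 3 calls among the 10 LXR and efflux genes were 3 with either other pseudocount, a filter at 5 FPKM (8 genes tested), both other scalings and the replicate block, and 4 with voom. They were 0 without a filter on low values and 0 without the variance trend (5 at unadjusted p under 0.05 in both), and 0 to 1 with 1 library left out, where the lone sample is assumed to vary like the other group. The 5 calls among the pathway lists were 0 without a filter (25 at unadjusted p under 0.05), 0 without the trend (22), 0 in each fit with 1 library left out (11 to 17) and 13 with voom (7 higher, 6 lower). Over all tested genes the 162 calls became 0 without a filter (2628 at unadjusted p under 0.05), 360 at a mean of at least 5 FPKM, 5 without the trend, 2 to 10 with 1 library left out and 868 with voom. For these counts the cause was not tested, beyond the fewer genes or libraries that some settings impose. Libraries of equal number deviated from their group means with a correlation of 0.0124 across genes, and the labels tie equal numbers to no shared culture or day; the replicate block gave 310 calls over all genes and 7 in the pathway lists. Among the members, log2 differences ranged from 1.81 to 2.16 for Abca1, 0.52 to 0.61 for Abcg1 and 0.43 to 0.51 for Scd1 over all settings, and their adjusted p in limma and voom from 4.39e-12 to 0.0887, 1.40e-07 to 0.104 and 7.24e-07 to 0.109. The other 7 members passed in none of the settings, except Lpcat3 with voom. With 1 library left out the difference of Nr1h3 ranged from -0.22 to -0.0090, that of Apoe from -0.21 to -0.037, that of Nr1h2 from -0.15 to -0.062 and that of Srebf1 from 0.063 to 0.21; the values nearest 0 were those without control replicate 2 for Nr1h3 and Srebf1, control replicate 1 for Apoe and AG replicate 1 for Nr1h2. Depth limits Nr1h3, with 65 to 91 fragments per library, and Apoe, with 131 to 163.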
